A study of Mus musculus with 8 samples.

Results

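The Zfp genes are the mouse genes named for zinc finger proteins, and 248 of the 389 Zfp rows in a table of 24516 genes were at 5 CPM or more in adult heart, where CPM is a count scaled to a library total of 1000000. Members were chosen by symbol, Zfp followed by a number, and by a mean of at least 5 CPM over the 8 libraries, taken before any further scaling. Of the 141 Zfp rows under that limit, 111 were tested for differences with the other genes and 10 had no count. The hearts came from mice 40 days after birth: 2 wild type, 3 heterozygous and 3 homozygous for a CRISPR/Cas9 deletion of a conserved enhancer of Actn2, the gene of the sarcomeric protein alpha-actinin-2. The sources used here name no strain, founder line or agent, and the labels place the hearts in a shared litter. No label says more about separate animals, so p-values measure the spread between these samples. The study set out to ask what this enhancer does in the living animal. Whole hearts were sequenced in bulk, so a lower level in a cell type and fewer cells of that type cannot be told apart.

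A zinc finger is a small fold held together by a zinc ion. In the C2H2 type, 2 cysteines and 2 histidines hold the metal, and arrays of such fingers usually read DNA, with each finger contacting a few bases. Many C2H2 proteins also carry a Krüppel-associated box (KRAB), which typically recruits the corepressor TRIM28 and with it chromatin that silences transposable elements and imprinted genes. KRAB genes sit in clusters of duplicated neighbours. The CCCH type, as in Zfp36, binds RNA instead and speeds the decay of messages with AU-rich elements. In heart tissue most of these genes have no known role.

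The proteins bore out the label for nearly all members. In proteins translated from GENCODE vM21, 242 of the 248 held at least 1 C2H2 finger, with a median of 10 and up to 36 in a protein. A KRAB-like box was found in 116 members, among them Zfp935, in which no C2H2 finger was found. The members with a CCCH finger were Zfp36, Zfp36l1 and Zfp36l2, and neither pattern was found in Zfp330 or Zfp703. KRAB-like members held a median of 12 C2H2 fingers and C2H2 members without that box a median of 7. The tissue label was checked against 6 cardiomyocyte markers, among them Myh6 and Tnnt2. Their summed level was 61113 and 54902.5 CPM in wild type, 45749 to 48732 CPM in heterozygous and 44894 to 53194 CPM in homozygous hearts. Every deletion library was below both wild-type libraries in this sum.

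The levels that chose the members are a description. Mean levels ran from 5.09 to 1723 CPM with a median of 16.2, 99 members were over 20 CPM and 8 were over 100 CPM. Just inside the limit stood Zfp580 at 5.09, Zfp53 at 5.12 and Zfp764 at 5.17 CPM, and just outside it Zfp11 at 4.96, Zfp607a at 4.95 and Zfp128 at 4.93 CPM. By genotype mean, 233 members reached 5 CPM in wild type, 244 in heterozygous and 246 in homozygous hearts. Every member had counts in every library, the lowest being 33 counts in wild type 2.

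Per kilobase of transcript, Zfp106 stood far above the other members at 189 CPM per kb. Zfp106 encodes an RNA-binding protein that mice need for the upkeep of motor neurons and muscle. It was followed by Zfp970 at 109, Zfp971 at 38.5, Zfp207 at 34.8, Zfp651 at 34.5 and Zfp445 at 30.6 CPM per kb, against a median of 4.31 over members. Zfp970 and Zfp971 both lie on chromosome 2 and share 57.2% and 42.4% of their 50-base words with transcripts of other genes, most with Gm14288. No source used here says how reads that fit several genes were counted, so the levels of such near copies are uncertain. Over all members, 169 shared at most 5% of their words and 42 shared over 20%.

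The upstream sequences of 6 members are shown because these genes had some of the largest rises (the first 3) and falls (the last 3) described below. Each is the 150 bases before the most upstream RefSeq start site, from GRCm38.p6, written from 5′ to 3′ on the gene's strand, and no exon annotated in GENCODE vM21 overlaps any of them. Capitals mark a CCAAT box (CCAAT) or a GC box (GGGCGG) on either strand. A TATA box (TATAAA) was also searched for.
Zfp971 (chr2:178023134-178023283, plus strand): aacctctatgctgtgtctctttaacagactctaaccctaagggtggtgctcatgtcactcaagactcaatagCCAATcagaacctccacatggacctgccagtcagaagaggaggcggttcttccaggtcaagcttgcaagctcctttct
Zfp955b (chr17:33289394-33289543, plus strand): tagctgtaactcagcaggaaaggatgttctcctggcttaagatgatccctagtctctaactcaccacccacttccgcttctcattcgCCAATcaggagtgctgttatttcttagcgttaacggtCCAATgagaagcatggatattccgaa
Zfp106 (chr2:120563860-120564009, minus strand): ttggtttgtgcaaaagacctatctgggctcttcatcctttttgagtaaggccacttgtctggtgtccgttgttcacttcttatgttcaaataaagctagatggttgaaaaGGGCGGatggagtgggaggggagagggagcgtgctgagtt
Zfp14 (chr7:30051397-30051546, minus strand): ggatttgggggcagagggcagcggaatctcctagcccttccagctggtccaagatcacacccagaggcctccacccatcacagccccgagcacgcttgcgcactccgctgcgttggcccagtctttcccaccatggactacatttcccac
Zfp653 (chr9:22071377-22071526, minus strand): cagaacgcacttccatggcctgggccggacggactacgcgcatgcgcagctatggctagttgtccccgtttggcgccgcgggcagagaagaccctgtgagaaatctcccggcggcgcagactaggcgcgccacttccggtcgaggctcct
Zfp692 (chr11:58306919-58307068, plus strand): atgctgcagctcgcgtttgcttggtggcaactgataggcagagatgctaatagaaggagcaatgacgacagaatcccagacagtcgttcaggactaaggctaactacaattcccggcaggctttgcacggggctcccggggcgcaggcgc
GC content was 46 to 49.3% in the upstream windows of the 3 genes that rose and 56.7 to 66% in those of the 3 that fell. The window of Zfp653 held 17 CG dinucleotides and that of Zfp971 held 1. Zfp971 and Zfp955b had CCAAT boxes, Zfp106 had a GC box, and none of the 3 motifs was found in the other 3 windows. These windows are examples, and the shares over all called members are given next.

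RefSeq held a promoter for 204 of the 248 members. In the 250 bases before the start, 49% of these members held a CCAAT box on either strand, against 35.7% of 11472 genes tested that had a promoter. A GC box was found in 44.1% against 57%, and a TATA box in 5.88% against 6.8%. Of 101 KRAB-like members with a promoter, 55.4% held a CCAAT box and 34.7% a GC box. Members called in homozygous hearts, as described below, included 51 higher and 16 lower ones with a promoter. A GC box was held by 43.1% of the higher and 43.8% of the lower ones. A CCAAT box was held by 54.9% and 25%, and a TATA box by 5.88% and 18.8%. These differences were not tested. The median GC content was 54.8% over members, 52% over KRAB-like members and 59.6% over the genes tested. These shares describe letters in a window and no binding.

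Libraries held 22230090 to 55902737 counts. Actn2, the gene of the deleted enhancer, was at 2187 and 2703 CPM in wild type, 1546 to 1693 CPM in heterozygous and 1611 to 2115 CPM in homozygous hearts, with log2 fold changes of -0.59 (edgeR adjusted p = 0.0193) and -0.41 (0.0771, which did not pass). After the gene property correction described below, Actn2 was at -0.28 and -0.08 and was not called in either genotype (edgeR adjusted p = 0.214 and 0.744). The members together took 0.657% and 0.605% of the counts of wild type 1 and 2, 0.811 to 0.878% in heterozygous and 0.802 to 0.847% in homozygous hearts. Without Zfp106 the shares were 0.569% and 0.535% in wild type, 0.622 to 0.666% in heterozygous and 0.602 to 0.644% in homozygous hearts, so every deletion library lay above both wild-type libraries either way. Across the members, wild type 2 stood apart: it correlated with the deletion libraries at r = 0.783 to 0.819, wild type 1 did so at 0.869 to 0.907, and pairs of deletion libraries reached 0.962 to 0.977. Wild type 1 and 2 correlated at 0.914. Atrial markers summed to 314 and 525 CPM in wild type 1 and 2 against 96.8 to 415 in the deletion hearts, and 3 of 4 were lower in both genotypes. Adipocyte markers summed to 1.40 and 11.9 CPM in wild type against 0 to 0.482 CPM, and neuron and glia markers to 14.2 and 29.6 against 6.48 to 12.9 CPM. The cardiomyocyte sums given above were also lower in every deletion library. Endothelial markers summed to 1062 and 937 CPM against 706 to 932 CPM. Smooth muscle and pericyte markers summed to 1246 and 1406 against 1018 to 1388 CPM, and lymphocyte markers to 13.3 and 12.2 against 10.8 to 17.8 CPM. The part of these cell types in the results on the members was not tested.

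**Figure D1:**
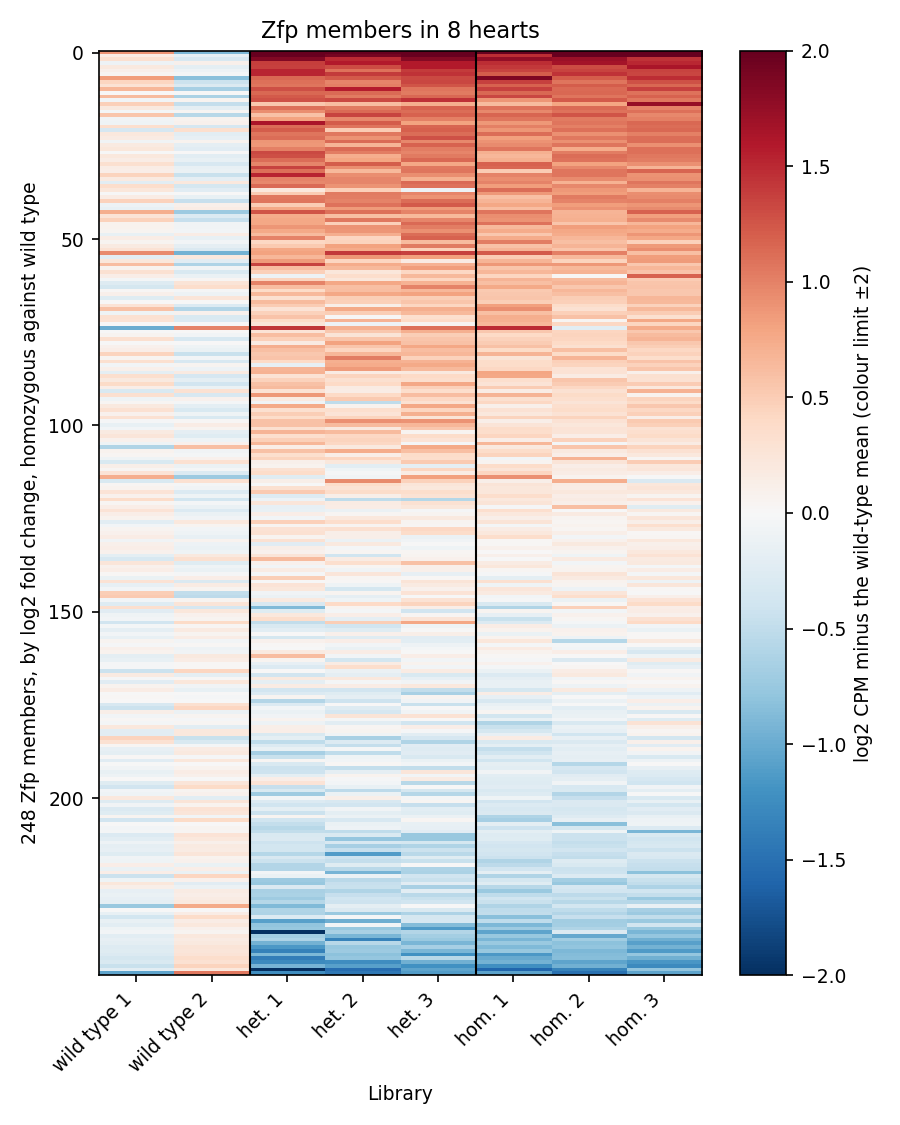
Each row is 1 of the 248 Zfp members, ordered by the log2 fold change of homozygous against wild-type hearts, and each column is 1 library; colour gives log2 CPM minus the mean of the 2 wild-type libraries, with colours ending at ±2. Heterozygous and homozygous libraries look alike, the upper rows are high and the lowest rows low in all 6, and wild type 1 and 2 differ from each other in many of the same rows.

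In homozygous hearts more members were higher than lower relative to wild type. Of the 248 members, 66 rose and 19 fell, which is 26.6% and 7.66%, where 15.3% of all 15075 genes tested were higher and 12.4% lower. Calls are at an adjusted p under 0.05 in edgeR's quasi-likelihood test, two-sided, with p-values adjusted by Benjamini-Hochberg across the whole table. At least 2-fold rises numbered 22 and at least 2-fold falls 3. The median log2 fold change was 0.15 over members and -0.03 over all genes tested. In 95 members every homozygous library was above both wild-type libraries and in 47 every one was below, where 27.6% and 27.2% of all genes tested did so. All 66 and 19 called members were among these. Leaving out wild type 2 left 45 higher and 3 lower members, leaving out wild type 1 gave 77 and 30, and leaving out homozygous 3 gave 41 and 9.

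Heterozygous hearts showed the same kind of split. In them 64 members (25.8%) rose and 25 (10.1%) fell relative to wild type, where 15.2% of all genes tested were higher and 12.8% lower. Rises of at least 2-fold numbered 26 and falls 3, and the median log2 fold change was 0.18. In 96 members every heterozygous library was above both wild-type libraries and in 49 below, where 25.7% and 25.6% of all genes tested did so. Leaving out wild type 2 left 48 higher and 5 lower, and leaving out heterozygous 2 or 3 left 12 or 14 lower. Both comparisons use the same 2 wild-type libraries, and the 5 CPM limit favours rises in both.

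Many called members differed between wild type 1 and 2 in the direction of the call. Of the 19 members lower in homozygous hearts, 18 had a higher level in wild type 2 than in wild type 1, and of the 25 lower in heterozygous hearts 24 did. Of the 66 higher in homozygous hearts 47 had a lower level in wild type 2, and of the 64 higher in heterozygous hearts 44. Over all 248 members, 120 were higher in wild type 2. Between wild type 1 and 2, 15 members (6.05%) differed by more than 1 on the log2 scale, where 15.5% of all genes tested did so. Between pairs of heterozygous libraries 0 to 1.61% of members differed that much, and between pairs of homozygous libraries 0.403 to 0.806%. Against wild type 1 alone the median member differed by 0.14 in homozygous and 0.17 in heterozygous hearts, and against wild type 2 alone by 0.22 and 0.19. The call of Zfp612 was also lost without homozygous 1 or 3 (edgeR adjusted p = 0.0502 and 0.0508).

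Homozygous and heterozygous hearts did not differ in any member at the threshold. The edgeR test called 0 members higher and 0 lower, and 0% of all genes tested in either direction, and DESeq2 and limma-voom also called 0 members. At an unadjusted p under 0.05 there were 9 members, and 411 of all genes tested. A p that misses the threshold does not show that the genotypes act alike. The member with the smallest p was Zfp655, at 51.6, 65.0 and 64.2 CPM in heterozygous and 37.5, 42.3 and 49.3 CPM in homozygous hearts, with 33.7 and 35.2 CPM in wild type. Its homozygous libraries were all below the heterozygous ones (log2 fold change -0.49, unadjusted p = 0.00432 in edgeR). Zfp608 went the other way at 9.44, 11.3 and 7.56 CPM against 17.7, 14.8 and 13.04 CPM, a log2 fold change of 0.68 (unadjusted p = 0.00781 in edgeR), and Zfp507 was at 18.3, 14.4 and 16.0 against 24.4, 20.5 and 20.7 CPM.

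Of 116 KRAB-like members, 32 rose and 3 fell in homozygous hearts and 35 rose and 4 fell in heterozygous hearts, with median log2 fold changes of 0.29 and 0.36. That is 27.6% higher and 2.59% lower in homozygous hearts, beside 15.3% and 12.4% of all genes tested. A correction for gene properties, described below, ended this split. Of the 112 KRAB-like members it covers, 6 rose and 7 fell in homozygous hearts (median -0.12). In heterozygous hearts 7 rose and 9 fell (median -0.07). Of all genes corrected, 8.43% were higher and 5.65% lower in homozygous hearts. Transcripts of KRAB-like members had a median GC content of 41.3%, against 50.2% over all genes tested. The largest rise of all members was in Zfp369, a KRAB-like gene at chr13:65278814-65304221. It was at 3.93 and 1.14 CPM in wild type, 19.5, 17.2 and 18.0 CPM in heterozygous and 15.8, 18.3 and 15.4 CPM in homozygous hearts. Every deletion library was about 4 times wild type 1 or more, and wild type 2 was lower still. Zfp369 was under 5 CPM in both wild-type libraries and met the limit through the deletion libraries, so the choice of members favours such a rise. The log2 fold change was 2.71 ± 0.40 (SE) in homozygous hearts with an edgeR adjusted p of 0.00157, and 2.85 ± 0.40 in heterozygous hearts with an adjusted p of 0.00118.

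Zfp971, at chr2:178023284-178034022, rose next most. It was at 17.9 and 14.2 CPM in wild type, 72.7, 60.1 and 86.6 CPM in heterozygous and 44.4, 69.7 and 69.1 CPM in homozygous hearts. All deletion libraries were well above both wild-type libraries, with homozygous 1 the lowest of them. The log2 fold change was 1.93 ± 0.24 in homozygous (adjusted p = 0.000569, edgeR) and 2.19 ± 0.24 in heterozygous hearts (adjusted p = 0.000328). Its neighbour Zfp970, at 158 and 170 CPM in wild type, was at 144 to 210 CPM in heterozygous and 121 to 203 CPM in homozygous hearts, so the groups overlapped and it did not pass the test.

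Zfp759, at chr13:67121660-67141787, was at 5.17 and 3.33 CPM in wild type, 15.0, 11.7 and 14.8 CPM in heterozygous and 14.0, 13.6 and 11.3 CPM in homozygous hearts. Zfp955b, at chr17:33289544-33307241, was at 10.3 and 7.94 CPM in wild type, 23.4, 22.4 and 27.2 CPM in heterozygous and 24.2, 22.4 and 28.2 CPM in homozygous hearts. In both genes the groups were apart and the spread among the 6 deletion libraries was small beside the gap to wild type. Zfp759 was under 5 CPM in wild type 2 and just over it in wild type 1. As for Zfp369, the choice of members favours such a rise. The homozygous log2 fold changes were 1.61 ± 0.24 for Zfp759 and 1.45 ± 0.18 for Zfp955b, with edgeR adjusted p-values of 0.00135 and 0.000585. Zfp955b shares 50.6% of its 50-base words, most with its neighbour Zfp955a, and the pair is uncertain for that reason. Zfp871, also KRAB-like and with a 3′ UTR of 8856 bases, was at 77 and 48.6 CPM in wild type, 133, 129 and 137 CPM in heterozygous and 122.8, 122.8 and 133 CPM in homozygous hearts. Its log2 fold change was 1.01 in homozygous hearts (edgeR adjusted p = 0.0028), and 0.13 after the gene property correction described below (0.539).

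The KRAB-like members with a known role that are named here did not pass in either genotype. Zfp57, which keeps the methylation marks of imprinted genes, was at 8.29 and 9.01 CPM in wild type, 1.63, 5.54 and 5.78 CPM in heterozygous and 4.15, 7.06 and 4.604 CPM in homozygous hearts. All 6 deletion libraries were below wild type, but the test was not passed (edgeR adjusted p = 0.258 in homozygous and 0.123 in heterozygous hearts). Zfp445, which shares that imprinting task, was at 204 and 214 CPM in wild type, 158 to 194 in heterozygous and 138 to 257 CPM in homozygous hearts. Zfp568, a repressor of a placental Igf2 transcript, was at 36.4 and 61.9 CPM in wild type with overlapping values of 33.8 to 80.8 CPM in the deletion hearts.

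Zfp14 and Zfp612 were the KRAB-like members among the largest falls. Zfp14, at chr7:30036359-30051380, was at 15.2 and 28.5 CPM in wild type, 10.98, 9.83 and 8.96 CPM in heterozygous and 8.92, 10.7 and 8.62 CPM in homozygous hearts. Zfp612, at chr8:110079746-110092741, was at 48.7 and 79.8 CPM in wild type, 24.0, 36.7 and 42.4 CPM in heterozygous and 31.0, 34.5 and 31.9 CPM in homozygous hearts. In both genes every deletion library was below both wild-type libraries, and wild type 2 was far above wild type 1. The homozygous log2 fold changes were -1.21 ± 0.25 and -0.98 ± 0.24 (edgeR adjusted p = 0.00587 and 0.0149). Without wild type 2 they were -0.66 and -0.55, with edgeR adjusted p-values of 0.0721 and 0.19. The call of Zfp612 was also lost without homozygous 1 or 3 (edgeR adjusted p = 0.0502 and 0.0508).

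Of the 127 members with C2H2 fingers and no KRAB-like box, 34 rose and 16 fell in homozygous hearts and 29 rose and 21 fell in heterozygous hearts, with median log2 fold changes of 0.07 and 0.07. That is 26.8% higher and 12.6% lower in homozygous hearts, beside 15.3% and 12.4% of all genes tested. In heterozygous hearts it is 22.8% and 16.5%, beside 15.2% and 12.8%. After the correction 8 rose and 11 fell in homozygous hearts and 7 rose and 10 fell in heterozygous hearts. Of all genes corrected, 8.43% were higher and 5.65% lower in homozygous hearts, and 7.83% and 5.6% in heterozygous hearts. Whether the classes differ was not tested. Zfp106, at chr2:120506820-120563843, was the most abundant member that rose. It was at 852 and 742 CPM in wild type, 2296, 1692 and 2086 CPM in heterozygous and 2029, 2032 and 2034 CPM in homozygous hearts. The homozygous libraries were nearly equal, and all 6 deletion libraries were about 2 times wild type or more. The log2 fold change was 1.35 ± 0.16 in homozygous hearts (edgeR adjusted p = 0.000525). Zfp106 shares 25.2% of its words, most with Gm26899, and no source used here says whether counting used strand.

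Zfp652 and Zfp518a rose with little spread. Zfp652, a transcriptional repressor at chr11:95712673-95835115, was at 10.3 and 11.9 CPM in wild type, 28.9, 33.2 and 33.3 CPM in heterozygous and 30.9, 34.9 and 31.4 CPM in homozygous hearts. Zfp518a, at chr19:40894705-40917947, was at 10.9 and 10.3 CPM in wild type, 30.5, 27.8 and 28.8 CPM in heterozygous and 24.5, 28.8 and 26.8 CPM in homozygous hearts. Wild type 1 and 2 were close to each other in both genes, and no deletion library came near them. The log2 fold changes in homozygous hearts were 1.55 ± 0.15 and 1.33 ± 0.14 (edgeR adjusted p = 0.000173 and 0.000307).

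**Figure D2:**
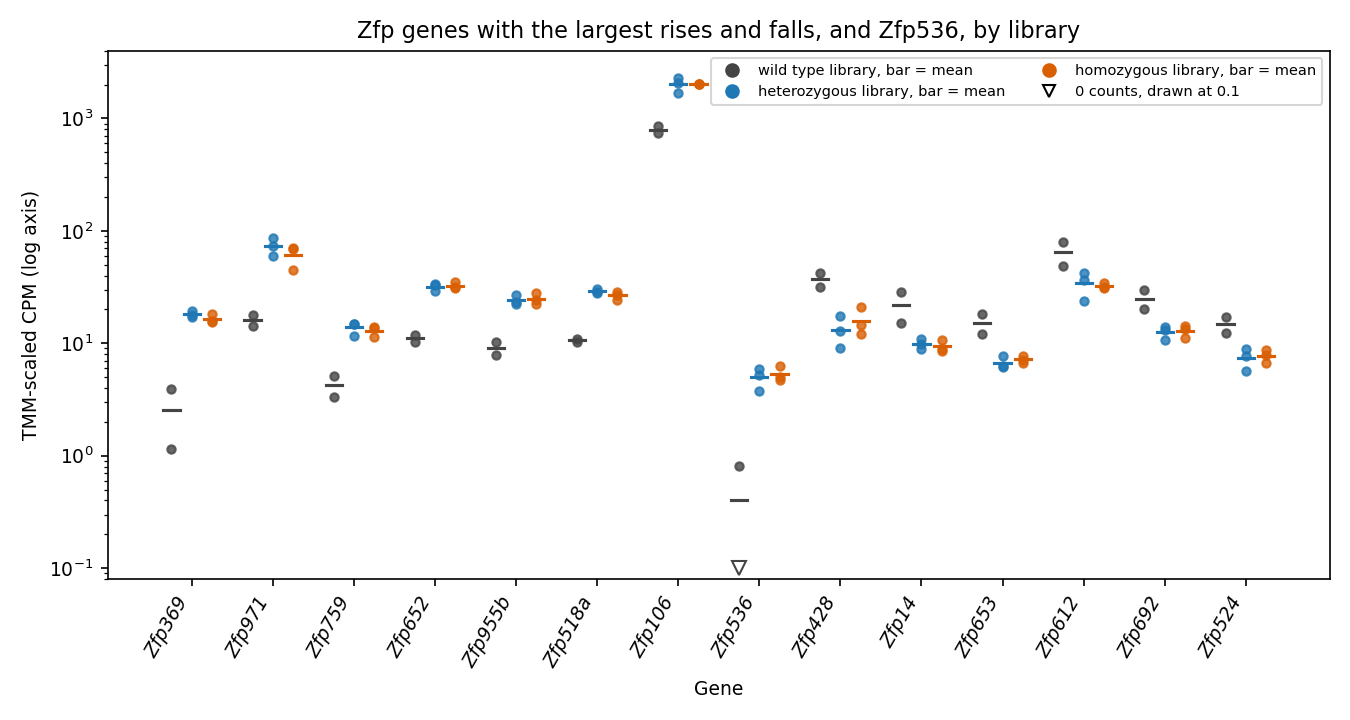
Points are the TMM-scaled CPM of single libraries on a log axis for the members with the largest rises (Zfp369 to Zfp106), Zfp536, and the largest falls (Zfp428 to Zfp524); bars are group means, and the open triangle is a library with 0 counts drawn at 0.1. Heterozygous and homozygous points overlap for every gene shown, from 15.4 to 19.5 CPM in Zfp369, and wild-type points stand apart from both.

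Several DNA-binding members with known roles rose. Zfp260, a regulator of the natriuretic peptide gene Nppa in heart muscle, was at 42.0 and 36.4 CPM in wild type, 61.3, 67.0 and 68.1 CPM in heterozygous and 56.9, 59.5 and 56.6 CPM in homozygous hearts. Zfp148, which binds GC-rich promoters, was at 34.6 and 36.5 CPM in wild type, 68.0, 77.8 and 77.2 CPM in heterozygous and 69.1, 75.8 and 76.5 CPM in homozygous hearts. Zfp292 was at 28.4 and 28.2 CPM in wild type, 62.8, 62.2 and 57.9 CPM in heterozygous and 62.7, 62.9 and 60.4 CPM in homozygous hearts. The deletion hearts lay above wild type in all 3 genes without overlap. Homozygous log2 fold changes were 0.56 for Zfp260, 1.05 for Zfp148 and 1.13 for Zfp292, with edgeR adjusted p-values of 0.00699, 0.000398 and 0.000212. After the adjustment for gene properties described below they were 0.12, 0.17 and 0.31 with edgeR adjusted p-values of 0.47, 0.397 and 0.113.

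Zfp91, a ubiquitin ligase, was at 102 and 101 CPM in wild type, 157, 141 and 148 CPM in heterozygous and 142, 141 and 158 CPM in homozygous hearts, a log2 rise of 0.54 in homozygous hearts (edgeR adjusted p = 0.00718). Zfp638, which helps to silence foreign DNA, was at 42.5 and 51.8 CPM in wild type, 80.1, 84.5 and 85.0 CPM in heterozygous and 72.0, 87.2 and 90.3 CPM in homozygous hearts, with a log2 fold change of 0.82 (edgeR adjusted p = 0.00268). Neither gene overlapped between deletion and wild-type hearts. After the adjustment for gene properties Zfp638 was at -0.01 in homozygous hearts (edgeR adjusted p = 0.983) and Zfp91 at 0.23 (0.228).
Zfp651 was at 176 and 162 CPM in wild type, 260, 202 and 238 CPM in heterozygous and 222, 231 and 262 CPM in homozygous hearts. Its log2 rise of 0.50 in homozygous hearts (edgeR adjusted p = 0.027) was no longer called without wild type 2, homozygous 2 or homozygous 3 (edgeR adjusted p = 0.0868, 0.0572 and 0.0999). Zfp664 was at 63.1 and 61.3 CPM in wild type, 81.2 to 99.0 CPM in heterozygous and 89.0 to 98.4 CPM in homozygous hearts, with a log2 rise of 0.58 (edgeR adjusted p = 0.00753).

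The next members did not pass the test in either genotype. Zfp207, which stabilises the spindle checkpoint protein Bub3, was at 92.8 and 85.1 CPM in wild type and 98.8 to 110.5 CPM in the deletion hearts, all above wild type. Zfp143, an activator of small nuclear RNA genes, was at 11.6 and 18.1 CPM in wild type and 10.6 to 14.6 CPM in the deletion hearts. Zfp281, a repressor in embryonic stem cells, was at 22.7 and 25.3 CPM in wild type and 27.1 to 34.5 CPM in the deletion hearts, also all above wild type (edgeR adjusted p = 0.0802 in homozygous hearts). Zfp740 was at 77.3 and 79.3 CPM in wild type and 73.3 to 79.3 CPM in the deletion hearts.
Zfp697, which acts in the regeneration of skeletal muscle, was at 18.8 and 17.5 CPM in wild type, 16.7 to 18.8 in heterozygous and 11.9 to 16.3 CPM in homozygous hearts, and did not pass. Zfp462, at 10.5 and 8.80 CPM in wild type and 8.12 to 14.7 CPM in the deletion hearts, overlapped. Zfp521, a regulator of cell fate in blood and bone, was at 12.2 and 13.9 CPM in wild type, 16.6 to 17.7 CPM in heterozygous hearts, all above wild type, and 12.5 to 21.1 CPM in homozygous hearts, which overlapped it. Zfp326, a link between transcription and splicing, was at 19.3 and 17.4 CPM in wild type and 16.5 to 21.2 CPM in the deletion hearts. Zfp277 was at 16.0 and 14.1 CPM in wild type and 15.1 to 17.4 CPM in the deletion hearts, and Zfp706, at 131 and 137 CPM in wild type, was at 102 to 148 CPM.

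Zfp622, a factor in the making of the large ribosomal subunit, was at 45 and 55.8 CPM in wild type, 32.8, 30.02 and 32.7 CPM in heterozygous and 35.8, 33.5 and 30.2 CPM in homozygous hearts. Zfp598, the ligase that marks stalled ribosomes, was at 59.1 and 59.5 CPM in wild type, 39.0, 48.6 and 48.1 CPM in heterozygous and 41.6, 41.7 and 37.6 CPM in homozygous hearts. The deletion hearts were below wild type in both genes without overlap. The homozygous log2 fold changes were -0.60 for Zfp622 and -0.56 for Zfp598 (edgeR adjusted p = 0.00901 and 0.0101), and without wild type 2 Zfp622 was at -0.41 (edgeR adjusted p = 0.0935). The heterozygous fall of Zfp598, -0.39 (edgeR adjusted p = 0.0446), was lost without any 1 of the 8 libraries.
Zfp335, a partner of histone H3 methyltransferases, was at 46.8 and 53.6 CPM in wild type and 36.0 to 40.1 CPM in the deletion hearts, with a homozygous log2 fold change of -0.39 (edgeR adjusted p = 0.0307). Zfp384 was at 38.9 and 46.9 CPM in wild type, 27.9 to 29.4 CPM in heterozygous and 30.7 to 32.8 CPM in homozygous hearts, at -0.44 in homozygous hearts (edgeR adjusted p = 0.0253). Neither was called in homozygous hearts without wild type 2 (edgeR adjusted p = 0.24 and 0.239) or without any 1 homozygous library (0.0559 to 0.107), and Zfp335 was not called without heterozygous 3 (0.0501).

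The largest falls without a KRAB-like box were in short transcripts rich in GC. Zfp428, at chr7:24507006-24515682 with a 3′ UTR of 152 bases and 64.4% GC, was at 31.6 and 42.3 CPM in wild type, 9.17, 12.7 and 17.5 CPM in heterozygous and 12.1, 14.5 and 21.2 CPM in homozygous hearts. Zfp653, at chr9:22055411-22071376, was at 11.99 and 18.4 CPM in wild type, 6.17, 6.26 and 7.66 CPM in heterozygous and 7.76, 7.15 and 6.64 CPM in homozygous hearts. Neither gene overlapped between wild-type and deletion hearts. Zfp692, at chr11:58307069-58314627, was at 20.2 and 29.8 CPM in wild type, 13.1, 13.8 and 10.6 CPM in heterozygous and 11.1, 13.4 and 14.3 CPM in homozygous hearts. Zfp524, at chr7:5014415-5018488, was at 12.4 and 17.3 CPM in wild type, 5.72, 8.89 and 7.76 CPM in heterozygous and 8.70, 7.86 and 6.67 CPM in homozygous hearts. Wild type 2 was the highest library in all 4 genes. Homozygous log2 fold changes were -1.21, -1.08, -0.95 and -0.94 in that order (edgeR adjusted p = 0.0122, 0.00604, 0.00755 and 0.0152). Without wild type 2 they were -0.95, -0.71, -0.61 and -0.65, and none was called (edgeR adjusted p = 0.072 to 0.147), and Zfp524 was not called without homozygous 3 (0.0619). In heterozygous hearts the call of Zfp653 was kept without wild type 2.

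The RNA-binding CCCH members did not pass in any comparison. Zfp36, also called tristetraprolin, was at 81.7 and 67.2 CPM in wild type, 56.9, 56.9 and 52.9 CPM in heterozygous and 57.9, 85.1 and 69.3 CPM in homozygous hearts. Zfp36l1 was at 75.6 and 47.2 CPM in wild type and 67.0 to 102 CPM in the deletion hearts, and Zfp36l2 at 62.1 and 42.3 CPM in wild type and 50.4 to 69.2 CPM in the deletion hearts. Heterozygous hearts were below both wild-type libraries for Zfp36, and groups overlapped otherwise. CCCH proteins call in the CCR4-NOT deadenylase and the decapping enzymes, and of 28 genes of that decay machinery tested 5 rose (17.9%) and 2 fell (7.14%) in each genotype, beside 15.3% and 12.4% of all genes tested in homozygous hearts. After the gene property correction 2 rose and 5 fell in homozygous hearts and 3 rose and 5 fell in heterozygous hearts. Over all genes corrected 8.43% were higher and 5.65% lower in homozygous hearts, and 7.83% and 5.6% in heterozygous hearts. Dcp2, the decapping enzyme, rose with a log2 fold change of 1.40 in homozygous hearts (edgeR adjusted p = 0.000235), and Edc4, an enhancer of decapping, fell by 0.73 on the log2 scale (0.00738).

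**Figure D3:**
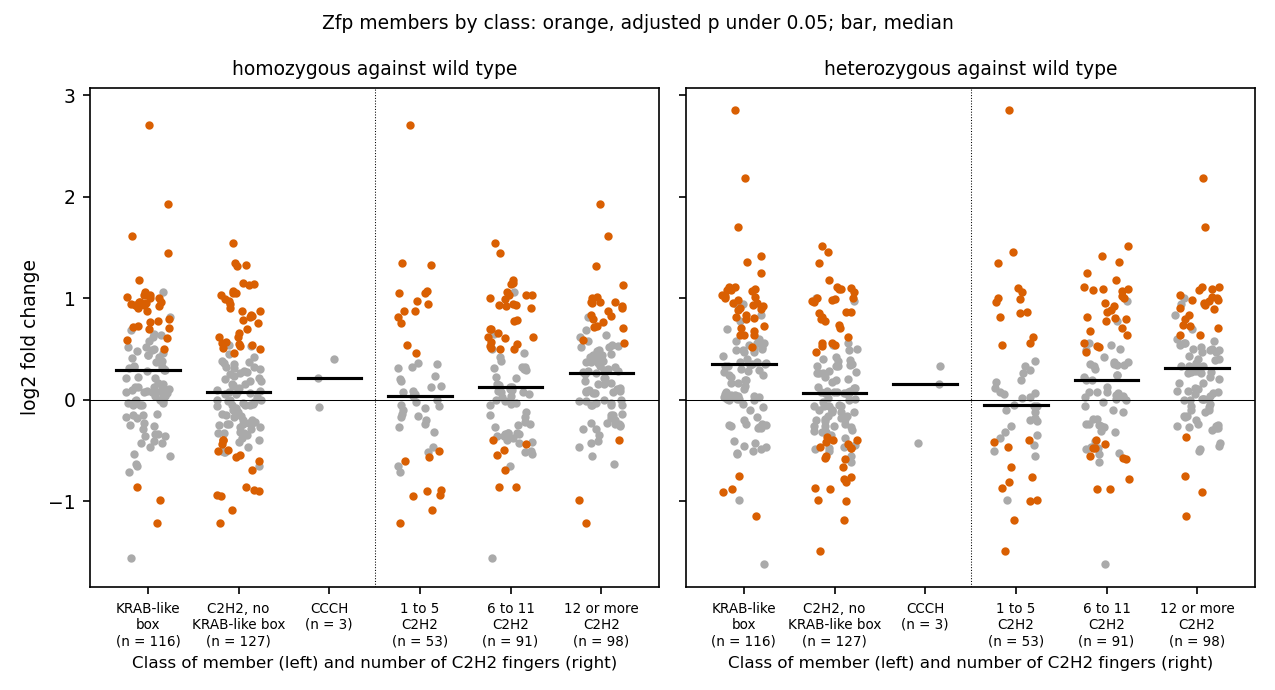
Each point is the log2 fold change of 1 Zfp member against wild type, by class and by number of C2H2 fingers, orange where the edgeR adjusted p was under 0.05; bars are medians. In homozygous hearts the median is 0.29 for 116 KRAB-like members and 0.07 for 127 C2H2 members without that box, and most orange points below 0 lie in the latter.

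Members were also grouped by finger number. In homozygous hearts 14 of 53 members with 1 to 5 C2H2 fingers rose and 9 fell, 30 of 91 with 6 to 11 fingers rose and 7 fell, and 22 of 98 with 12 or more rose and 3 fell, beside 15.3% higher and 12.4% lower over all genes tested. After the gene property correction the counts were 4 and 4 of 53, 7 and 5 of 91, and 3 and 9 of 94 in that order. Of the 13840 genes corrected, 8.43% were higher and 5.65% lower. More members with 12 or more fingers were then called lower than higher. The difference between these classes was not tested, and finger number and transcript GC content differ together, at a median GC of 49.6%, 44.8% and 42.4%.

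Neighbouring members did not move as 1 block. With a gap of at most 500000 bases between neighbours, 86 members fell into 10 groups of at least 5. A group of 10 KRAB-like members at chr13:67121660-67729173, from Zfp759 to Zfp65, had 5 members that rose and 0 that fell in homozygous hearts, with log2 fold changes from -0.03 to 1.61. A group of 11 members at chr17:32765496-33631779, from Zfp871 to Zfp414, had 7 that rose and 1 that fell, from -0.89 to 1.45. In a group of 17 at chr17:21008903-23564238, from Zfp160 to Zfp213, 4 rose and 0 fell. The group of 6 at chr7:4915217-5053723, from Zfp628 to Zfp580, holds no KRAB-like member, and there 0 rose and 2 fell. By chromosome, 7 of 13 members rose and 2 fell in homozygous hearts on chromosome 2, 9 of 19 and 0 on chromosome 13, 11 of 34 and 2 on chromosome 17, 10 of 57 and 6 on chromosome 7, and 3 of 19 and 3 on chromosome 8. After the gene property correction these counts were 1 and 1 of 11, 2 and 0 of 19, 2 and 6 of 34, 2 and 4 of 56, and 1 and 2 of 18. Of the genes corrected, 8.43% were higher and 5.65% lower. Over all genes tested 15.3% were higher and 12.4% lower without the correction, and no test set a group or chromosome against the rest.

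The cofactors of KRAB proteins moved in both directions. Of 34 genes for the silencing machinery tested, 11 rose (32.4%) and 4 fell (11.8%) in each genotype, beside 15.3% and 12.4% of all genes tested in homozygous hearts. After the gene property correction 4 rose and 1 fell in homozygous hearts and 4 rose and 2 fell in heterozygous hearts. Trim28, the gene of the corepressor that many KRAB boxes recruit, was at 100.1 and 78 CPM in wild type. It was at 54.1, 65.6 and 67.8 CPM in heterozygous and 64.9, 67 and 62.9 CPM in homozygous hearts. All deletion libraries were below both wild-type libraries, and the log2 fold change in homozygous hearts was -0.45 (edgeR adjusted p = 0.036), or -0.07 after the gene property correction (0.794). Cbx5, a heterochromatin protein, rose by 0.98 on the log2 scale in homozygous hearts (edgeR adjusted p = 0.000681). After the correction it stood at 0.23 there (0.163) and was not called. In heterozygous hearts it rose by 1.17 (edgeR adjusted p = 0.00031), and after the correction it stood at 0.39 (0.0336) and was still called. Zinc finger families with other names, such as Klf, Sp and Zbtb, held 78 genes at the same limit. In homozygous hearts 27 rose (34.6%) and 3 fell (3.85%), and in heterozygous hearts 29 (37.2%) and 3 (3.85%). The shares higher were above those of the Zfp members, 26.6% and 25.8%. After the correction 13 rose and 4 fell, and 12 and 4, beside 14 rises among 244 Zfp members in each genotype. Over all genes corrected 8.43% were higher and 5.65% lower in homozygous hearts, and 7.83% and 5.6% in heterozygous hearts. That the Zfp members differ from these families was not tested. Among the 111 Zfp rows tested under 5 CPM, 9 rose (8.11%) and 2 fell (1.8%) in homozygous hearts.

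Gene properties went with the fold changes of members. Across members, Spearman's rho between the homozygous log2 fold change and the length of the 3′ UTR was 0.471 (n = 244), and with transcript GC content it was -0.457 (n = 248). Over all genes tested the values were 0.415 and -0.423. These are correlations across genes measured in the same 8 libraries, and genes are not independent replicates. Members had a median 3′ UTR of 1522.5 bases and 44.9% GC, against 1049 bases and 50.2% over all genes tested. Among the 83 members with 3′ UTRs of up to 1048 bases or none annotated, 9 rose and 13 fell in homozygous hearts, and among the 83 with more than 2299 bases 34 rose and 3 fell. In heterozygous hearts the counts were 9 and 16 against 34 and 5. Shares in the short group were 10.8% higher and 15.7% lower in homozygous hearts, and in the long group 41% and 3.61%. Over all genes tested they were 15.3% and 12.4%. After the gene property correction below, the homozygous counts were 2 and 1 of 79 in the short group and 5 and 11 of 83 in the long group. Over all genes corrected 8.43% were higher and 5.65% lower.

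**Figure D4:**
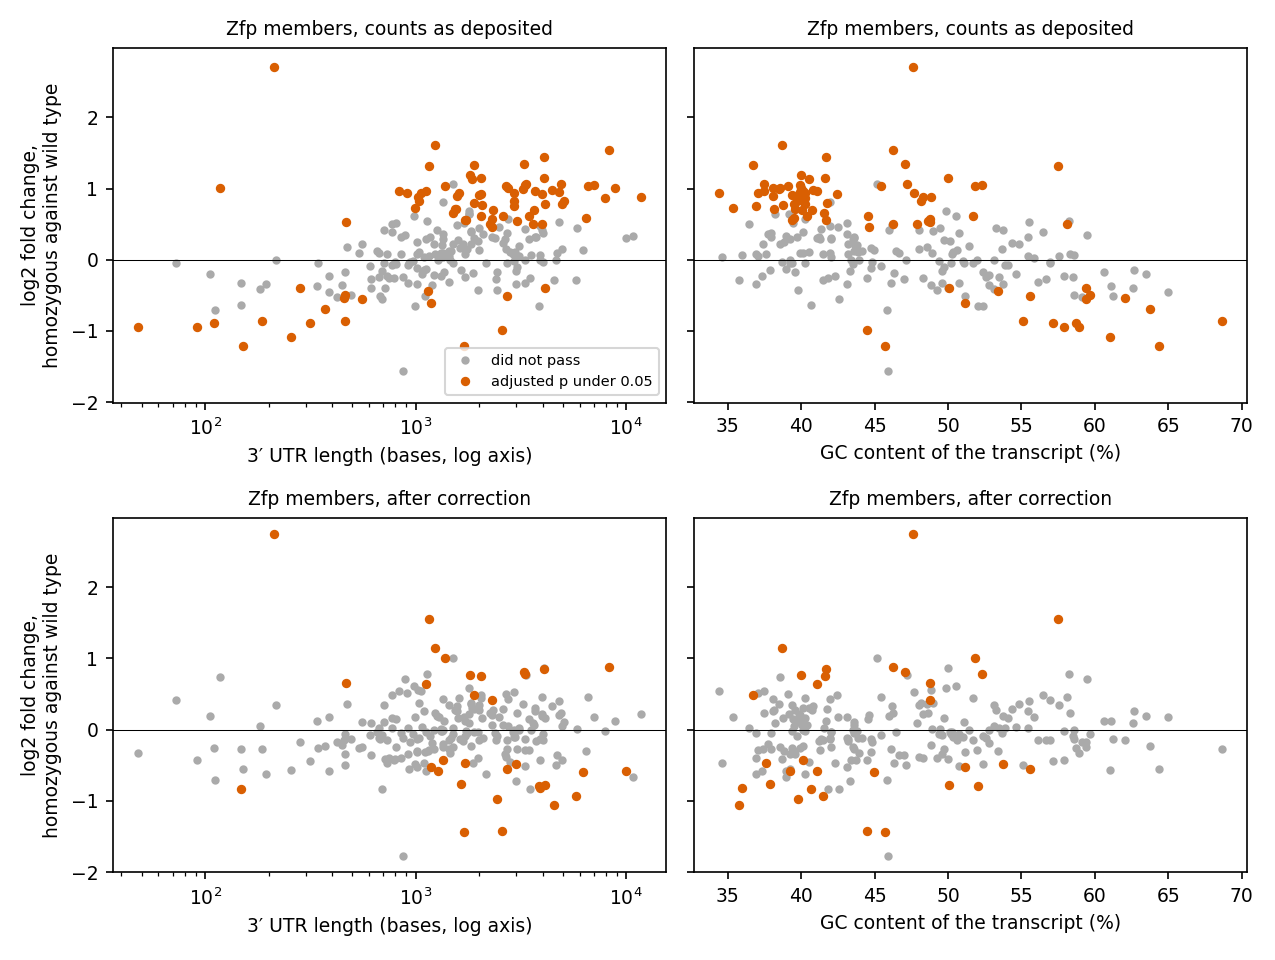
Points are the log2 fold changes of the Zfp members with a 3′ UTR, homozygous against wild type, by 3′ UTR length (left, log axis) and by transcript GC content (right), from the counts as deposited (top) and after the gene property correction (bottom), orange where the edgeR adjusted p was under 0.05. In the top panels long 3′ UTRs and low GC go with higher fold changes (rho 0.471 and -0.457), and in the bottom panels orange points lie on both sides of 0 at most lengths.

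A correction that removes each library's trend with GC content and with the lengths of the transcript and its 3′ UTR left most rises uncalled. With it, 14 of the 244 members that have all 3 properties rose and 18 fell in homozygous hearts, where 8.43% of 13840 genes were higher and 5.65% lower. In heterozygous hearts 14 rose and 19 fell, where 7.83% and 5.6% of all genes did. The median log2 fold change of members became -0.04 in homozygous and -0.05 in heterozygous hearts, beside -0.02 and -0.01 over all genes corrected. Of the members called without correction, 14 rises and 5 falls stayed called in homozygous hearts, 13 further members were called lower, and none was called in the opposite direction. With wild type 2 also left out, 7 were higher and 3 lower in homozygous hearts and 10 and 4 in heterozygous hearts, and with wild type 1 left out 31 and 33, and 33 and 32. The correction assumes that a trend over all genes is no part of the difference between genotypes, which was not tested.

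**Figure D5:**
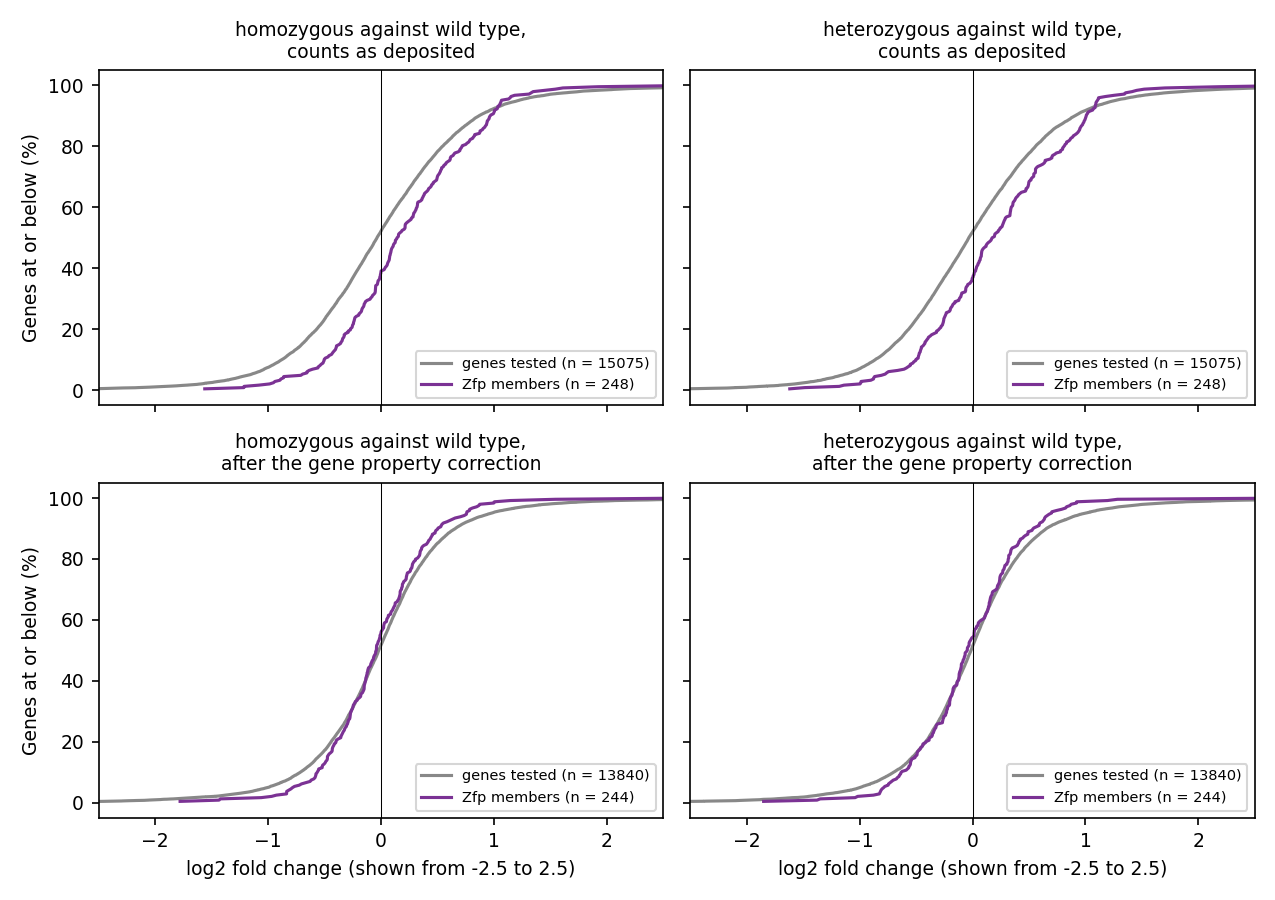
Curves give the percent of genes at or below each log2 fold change, for the Zfp members (purple) and for all genes tested (grey), homozygous (left) and heterozygous (right) against wild type. With the counts as deposited (top) the member curve lies to the right of the grey curve, at medians of 0.15 and -0.03 in homozygous hearts, and after the gene property correction (bottom) the medians are -0.04 and -0.02.

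Zfp369 was as high with the correction, at a log2 fold change of 2.75 in homozygous hearts (edgeR adjusted p = 0.00363). The others that stayed higher in homozygous hearts were Zfp759, Zfp652, Zfp955b, Zfp955a, Zfp106, Zfp526, Zfp251, Zfp609, Zfp449, Zfp146, Zfp617, Zfp518a and Zfp664, some of them named here after their values were seen. Zfp759 stood at 1.15, Zfp652 at 0.88, Zfp955b at 0.85 and Zfp106 at 0.81 (edgeR adjusted p = 0.00905, 0.00696, 0.00987 and 0.00971). Zfp14 and Zfp612 stayed lower, at -1.43 and -1.42 (edgeR adjusted p = 0.00663 and 0.00965), as did Zfp622 at -0.52 (0.0284). Zfp428, Zfp653, Zfp692 and Zfp524, whose transcripts are 57.9 to 64.4% GC, were not called with it (edgeR adjusted p = 0.101 to 0.389). Zfp971 has no annotated 3′ UTR and could not be corrected.

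Zfp536, a repressor of neural differentiation, lay under the 5 CPM limit with a mean of 3.98 CPM and is given beside the members. It had 21 counts in wild type 1 and 0 in wild type 2. Its levels were 0.81 and 0 CPM in wild type, 5.22, 3.79 and 5.92 CPM in heterozygous and 5.01, 6.22 and 4.75 CPM in homozygous hearts. All 6 deletion libraries were above wild type 1 by several times, and the genotypes with the deletion overlapped. The log2 fold change was 3.75 ± 0.82 in homozygous hearts (edgeR adjusted p = 0.00905) and 3.65 ± 0.82 in heterozygous hearts (0.00988), values that depend on the prior count given to a library at 0. With the gene property correction they were 3.93 (edgeR adjusted p = 0.015) and 3.87 (0.0173). Over the 8 libraries the genes with the most similar log2 CPM were Mettl4, Tmod1, Ston1, Ndfip1 and Tmem55a, at Pearson r from 0.995 to 0.998, and 510 of 13109 genes were over 0.95. The libraries share the gap between wild type and deletion hearts, so such an r is easily reached here.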

How the data were processed

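RNA of 8 mouse hearts was sequenced. The deposited file holds raw counts per gene symbol, 1 column per library. Per the submitters' processing notes, the authors used Trimmomatic 0.36, HISAT2, Subread, featureCounts and DESeq2 on mm10; no source used here gives the annotation, strand setting or treatment of multi-mapping reads. Members and lists were chosen with earlier results of these data known.

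Counts were analysed in R 4.3.3 with edgeR 4.0.16: filterByExpr on genotype, TMM, and 1 robust quasi-likelihood fit of all 8 libraries with two-sided F tests, Benjamini-Hochberg adjustment over 15075 genes calling adjusted p under 0.05. CPM levels were scaled by TMM. The fit gives a gene the same spread in every genotype, although 6 of the 8 libraries carry the deletion and wild type 1 and 2 differed more than deletion pairs; adjusted p-values against wild type can be too small. Alternatives used DESeq2 1.42.0, limma-voom 3.58.1, other scaling, filters and limits, left-out libraries, a replicate block, and a gene property correction (splines with 4 df of GC content and of transcript and 3′ UTR lengths, from the longest coding transcript of GENCODE vM21). The fits were tested on simulated data in which a gene had the same spread in every genotype. Such data cannot show how the fits behave where wild type varies more.

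Fingers and KRAB-like boxes were counted by letter patterns in proteins translated from GENCODE vM21; a KRAB pattern fixed first found 83 boxes and a wider one, added after it was seen to miss boxes, made 116. Named members are the 6 largest rises and falls past the threshold in each genotype, the 10 highest levels, the CCCH members, those with a known role, the 3 smallest p between the deletion genotypes, those nearest the limit, and Zfp536. Members that did not pass are given by their levels.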

Additional observations from a re-analysis of the deposited data

How the results depend on the processing

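Counts of members called higher and lower, 66 and 19 in homozygous and 64 and 25 in heterozygous hearts, were within 1.5 times those values under DESeq2, limma-voom, other scaling, no filter, a fit that is not robust and member limits of 2 and 10 CPM (309 and 180 members). The gene property correction gave 14 higher members in each genotype. Together with the replicate block it gave 11 higher in each and 12 lower in heterozygous hearts. Without wild type 2 as well it gave 7 and 3 in homozygous and 10 and 4 in heterozygous hearts, and without wild type 1 it gave 31 and 33, and 33 higher in heterozygous hearts; this last setting was chosen after seeing the data. Fitting only the genotypes compared left 11 lower in heterozygous hearts. Members that share at most 5% of their words, an alternative also added later, held 12 lower in homozygous hearts, which is 7.1% of 169 beside 7.66% of all 248.

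With each library left out in turn, homozygous hearts had 41 to 77 higher and 3 to 30 lower members, and heterozygous hearts 48 to 78 higher and 5 to 34 lower. With 1 wild-type library left, it is assumed to vary like the others.

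With the replicate number as a block the counts were 51 and 15 in homozygous and 59 and 15 in heterozygous hearts. Same-numbered libraries correlated at -0.0228 to 0.177 in their deviations from the genotype mean, and differently numbered ones at -0.225 to 0.135. Deviations within so small a genotype group are tied to each other. These values therefore cannot show whether the numbers pair the samples.

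Of 29 named genes followed, 1143 of 1152 values had the main direction and 943 also its side of the threshold. Against wild type, a named gene was followed only where the main test called it. Every alternative also reused the same libraries. Agreement in direction was therefore largely set in advance and is no independent support. The 9 reversed values were Zfp638 at -0.00692 and -0.0262 (homozygous, heterozygous) with the correction, -0.0357 and -0.0482 with the block added, and -0.25 and -0.26 without wild type 1; Zfp871 at -0.0334 (homozygous) and Zfp335 at 0.0031 (heterozygous) with the correction and without wild type 2; and Zfp148 at -0.0166 (heterozygous) with it and without wild type 1. The cause was not tested. The lowest count of a member was 33, and counting error was not set against the spread between libraries.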
